A study of Homo sapiens with 4 samples.

Results

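The insulin-like growth factor (IGF) binding proteins IGFBP1 to IGFBP7, the receptors IGF1R and IGF2R and the ligand gene IGF2 were followed in PC3 cells after depletion of COUP-TFII. These 10 genes were taken up because IGFBP3 rose about 4-fold on these same arrays. Their probe sets, the groups of short probes that each report 1 transcript region, were those that the platform table assigned to a gene of the family and to no other gene. That gave 24 probe sets for 9 genes, out of 41091 single-gene probe sets and 54675 probe sets in all. IGF2 had none, since its 3 probe sets are shared with the readthrough gene INS-IGF2. PC3 is an established line of androgen-independent prostate cancer cells from a bone metastasis. It was grown in serum-containing medium, transfected with 40 nM of a control siRNA or of one against the orphan nuclear receptor COUP-TFII, and harvested at 48 h. Each group held 2 arrays of total RNA, and the comparison asked which transcripts differ when COUP-TFII is depleted. The labels name 1 cell line and 1 siRNA designation per group. They do not say whether the replicates were separate transfections, so a p-value here speaks only of the variation among these 4 arrays, and that variation may be technical.

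IGF1 and IGF2 are secreted growth factors that activate the tyrosine kinase IGF1R and, through it, the PI3K-AKT and MAPK pathways. IGF2R, the cation-independent mannose 6-phosphate receptor, clears IGF2 from the cell surface and sorts lysosomal enzymes. IGFBP1 to IGFBP6 bind IGFs with high affinity and release them when cut by proteases, while IGFBP7 binds them weakly. IGFBP3, the main carrier of IGFs in serum, also has actions on cells that do not need IGF binding, and prostate cells have long been used to study them.

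Intensities on the arrays were similar in scale, with medians from 31.7 to 32.9, and replicate arrays correlated at 0.9871 and 0.9880 across probe sets on the log2 scale, against 0.9751 to 0.9794 between groups. The epithelial markers KRT8, KRT18, KRT19, EPCAM and CDH1 had a summed intensity of 31338 to 31713 in the control arrays and 31145 to 31546 in the COUP-TFII siRNA arrays. Within that sum KRT8 rose by 0.16 and KRT18 by 0.13 on the log2 scale, EPCAM fell by 0.24 and CDH1 by 0.30, and KRT19 did not pass. KRT8 and KRT18 are each read by 1 _x_at probe set, a kind open to cross-hybridisation. Neither passed in the separate fit over all probe sets. The leukocyte markers summed to between 48.8 and 61.7 and those of hepatocytes, a major source of circulating IGFBPs, to between 43.5 and 62.0 over all 4 arrays. The endothelial markers summed to 174.0 to 180.4 in the control arrays and 206.0 to 262.8 in the others, where 0 of 3 passed by limma and 2 had an unadjusted p below 0.05. Of 4 androgen receptor and prostate secretory genes, 2 were measured, and the serine protease gene TMPRSS2 rose by 1.35 and KLK3 (8.56 to 25.9) did not pass. Fibroblast markers summed to 695.3 to 792.0 in the control arrays and 1099 to 1100 in the others. Of those 5 genes only COL1A1 passed the test, at a log2 difference of 0.73 (limma adjusted p = 0.000136), and the other 4, COL1A2, COL3A1, DCN and LUM, lay between 7.47 and 85.3. The 3′ to 5′ ratio of the ACTB control probe sets, a sign of RNA integrity, was 1.52 and 1.83 in the control arrays and 1.42 and 1.46 in the COUP-TFII siRNA arrays. That of GAPDH was 0.957 and 0.986 against 0.994 and 0.986. The part of COL1A1 or of the ACTB ratio in the values below was not tested.

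Sequence upstream of the start site is given for the 3 genes on which the results turn, IGFBP3 and IGF1R, whose probe sets were higher together, and IGFBP5, whose probe sets went both ways. The 250 bases before the annotated start are from RefSeq, build GRCh38.p14, written 5′ to 3′ on the strand of the gene. Capitals mark matches to GGGCGG, the GC box, on either strand (CCGCCC when read on the other strand). AGGTCA, the half-site bound by nuclear receptors, was searched on both strands too. The lines are IGFBP3 at chr7:45921273-45921522 on the minus strand, IGF1R at chr15:98648289-98648538 on the plus strand and IGFBP5 at chr2:216695550-216695799 on the minus strand.
IGFBP3: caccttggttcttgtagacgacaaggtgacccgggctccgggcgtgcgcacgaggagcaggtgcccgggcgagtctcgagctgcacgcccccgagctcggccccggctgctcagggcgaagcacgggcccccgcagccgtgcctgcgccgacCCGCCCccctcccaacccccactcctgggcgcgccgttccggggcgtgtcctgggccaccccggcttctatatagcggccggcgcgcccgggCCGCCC
IGF1R: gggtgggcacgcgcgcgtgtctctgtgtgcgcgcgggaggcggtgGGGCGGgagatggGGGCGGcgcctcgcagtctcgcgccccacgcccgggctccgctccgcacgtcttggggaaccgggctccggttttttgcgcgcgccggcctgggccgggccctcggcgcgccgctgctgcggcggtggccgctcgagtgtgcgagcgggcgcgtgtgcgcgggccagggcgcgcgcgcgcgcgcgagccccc
IGFBP5: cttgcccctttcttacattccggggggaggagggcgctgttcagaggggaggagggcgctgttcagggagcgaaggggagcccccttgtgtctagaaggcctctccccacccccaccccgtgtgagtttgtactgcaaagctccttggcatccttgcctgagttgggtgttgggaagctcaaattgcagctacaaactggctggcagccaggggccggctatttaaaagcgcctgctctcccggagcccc
The IGFBP3 window held 2 GC boxes, with their first bases 98 and 6 bases before the start, and that of IGF1R held 2, at 205 and 192. The IGFBP5 window held neither motif. Windows were matched for 7 of the 10 genes, 9 windows in all. GGGCGG was in 7 of these 9 and in 42.6% of all 35116 windows of the same length. AGGTCA was in 1 of the 9, a window of IGFBP2, and in 12.1% of all windows. The GC content was 76.0% for IGFBP3, 81.2% for IGF1R and 61.2% for IGFBP5, with a median of 58.0% over all windows. A match is a string of letters and not a measured site, and these windows leave out all sequence beyond 250 bases.

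IGFBP3 was the member with the largest difference, and both of its probe sets gave it. On the brighter one, 210095_s_at, the intensity was 539.5 and 530.7 in the control arrays and 2367 and 2116 in the COUP-TFII siRNA arrays. The groups were far apart, and the replicates of each lay close together. The means were 535.1 ± 6.2 and 2242 ± 177 (SD, n = 2), a ratio of 4.19 and a log2 difference of 2.03 ± 0.07 (SE). This difference and those that follow were taken on log2(intensity + 16), which understates the change of dim probe sets. On the other probe set, 212143_s_at, the intensity was 225.1 and 232.6 in the control arrays and 981.7 and 905.8 in the COUP-TFII siRNA arrays, a ratio of 4.12 and a log2 difference of 1.97 ± 0.07 (SE). Only 9 of the 19775 genes had a larger positive difference than IGFBP3. These are the values for which the family was chosen, so they are a description. Where IGFBP3 and the other members are counted below as passing or not, the call describes them and supports nothing.

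**Figure D1:**
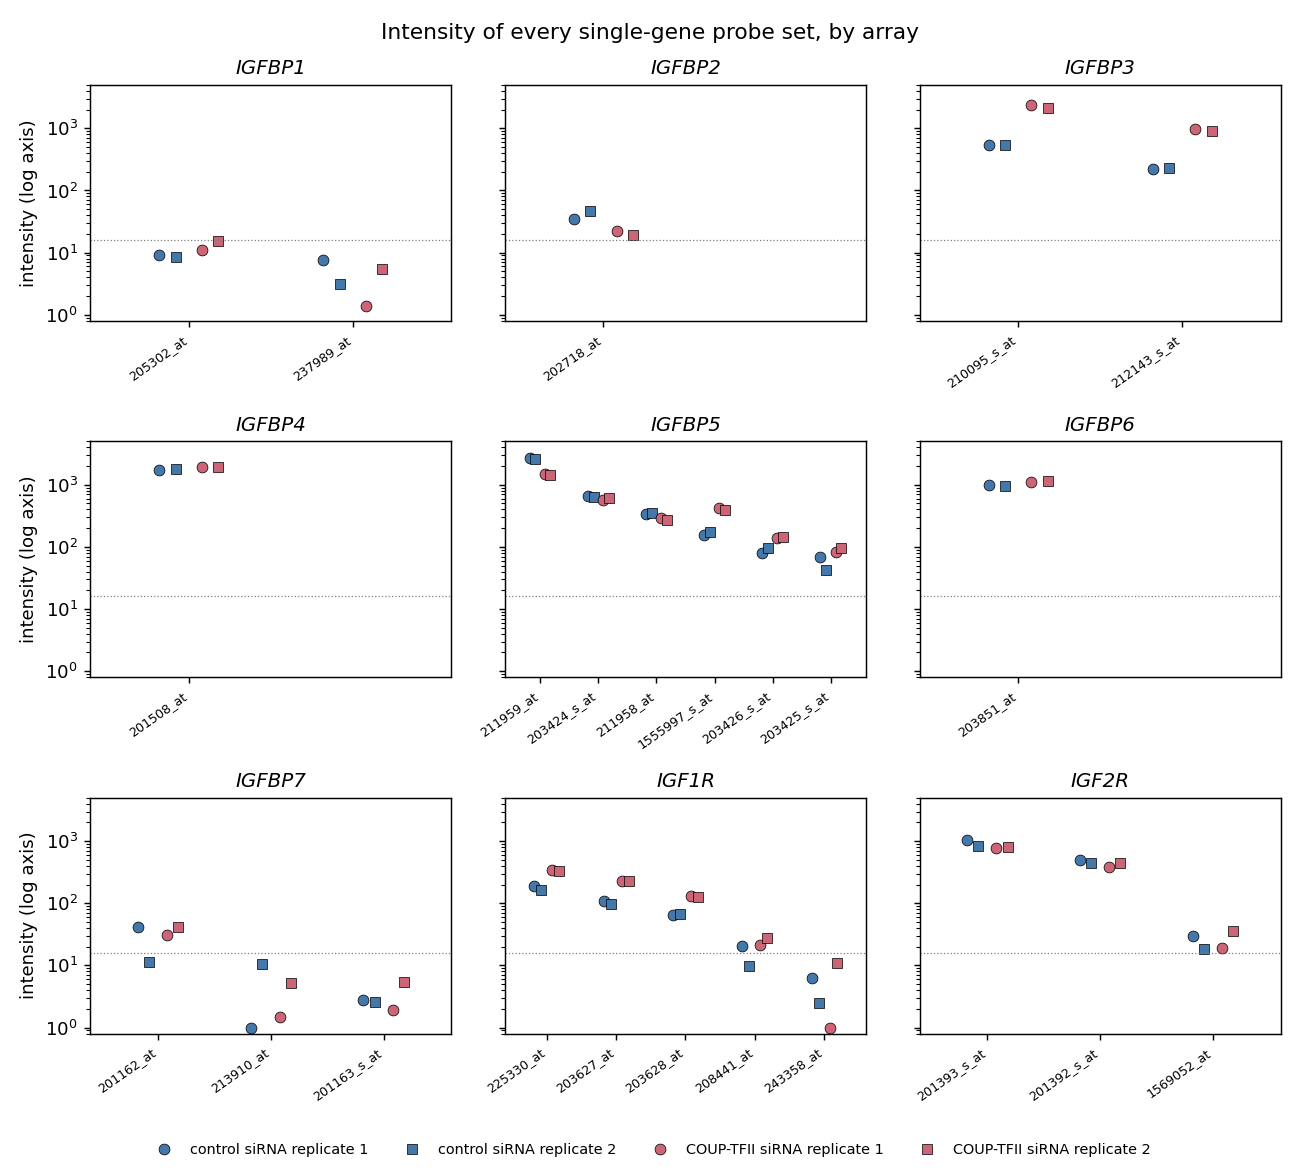
Intensity (log axis) of all 24 single-gene probe sets of the 9 measured genes, 1 panel per gene. Each point is 1 array, blue for control siRNA and red for COUP-TFII siRNA, circles for replicate 1 and squares for replicate 2, and the dotted line is the constant of 16 added before taking logarithms. Both IGFBP3 probe sets and the 3 brightest of IGF1R were higher in both COUP-TFII siRNA arrays, while the 6 probe sets of IGFBP5 moved in both directions.

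IGFBP5, a binding protein with affinity for the extracellular matrix, had 6 probe sets and no common direction. The brightest, 211959_at, read 2663 and 2563 in the control arrays and 1518 and 1459 in the COUP-TFII siRNA arrays, 1.75 times lower (log2 difference -0.80 ± 0.05, SE). In contrast, 1555997_s_at read 153.3 and 173.1 in the control arrays and 430.3 and 388.8 in the COUP-TFII siRNA arrays, 2.51 times higher (log2 difference 1.25 ± 0.10, SE). The groups did not overlap on either, although the direction was opposite. Of the other 4 probe sets, 203426_s_at was higher by 0.59 ± 0.14, passing with no array left out, and 203425_s_at by 0.60 ± 0.21 (SE, log2 scale). The remaining pair was lower, 211958_at with a log2 difference of -0.29 ± 0.08 and 203424_s_at with -0.13 ± 0.07 (SE). In all 6 the ranges of the groups were apart. The 3 brightest were lower and the 3 dimmest higher, so the sign of IGFBP5 depended on the probe set read. The gene was represented by its brightest probe set and then passed as lower. The mean of its 6 probe sets gave a log2 difference of 0.20, which did not pass. The transcript positions of these probe sets were not analysed here.

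**Figure D2:**
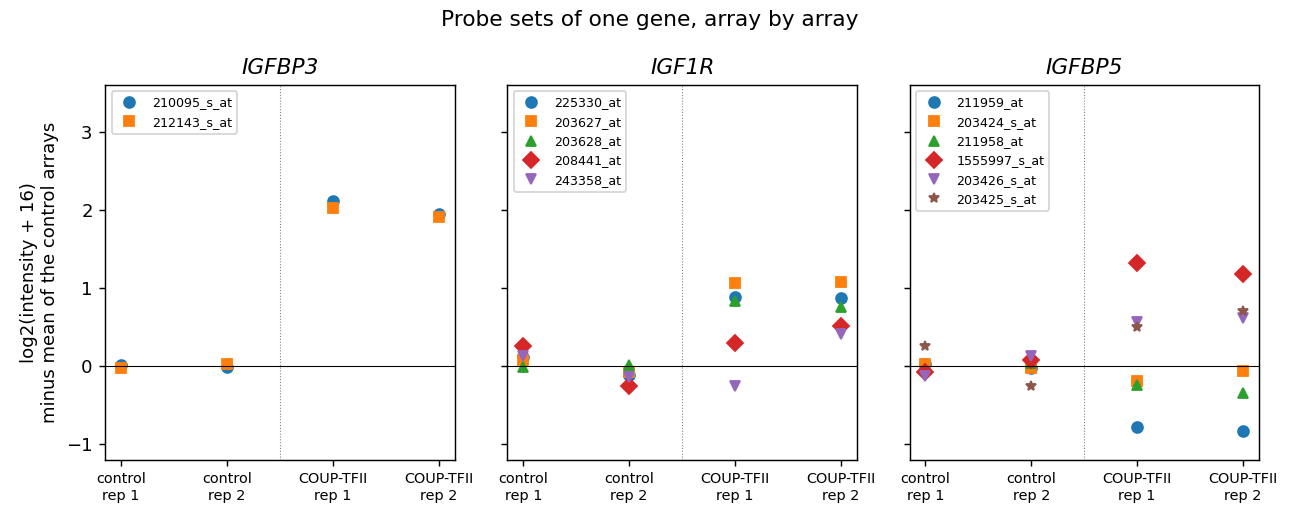
Log2(intensity + 16) of each array minus the mean of the control arrays, for the probe sets of IGFBP3, IGF1R and IGFBP5, 1 symbol per probe set. The 2 IGFBP3 probe sets overlie each other near 2 in the COUP-TFII siRNA arrays, whereas those of IGFBP5 spread from about -0.80 to 1.25.

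IGF1R, the signalling receptor, was higher on its 3 brightest probe sets. On 225330_at the intensity was 193.4 and 161.2 in the control arrays and 338.8 and 336.6 in the COUP-TFII siRNA arrays, a ratio of 1.91 (log2 difference 0.88 ± 0.11, SE). The groups did not overlap, and the control arrays differed more from each other than the COUP-TFII siRNA arrays did. On 203627_at the values were 108.4 and 95.9 against 231.3 and 232.1, a ratio of 2.27 (log2 difference 1.07 ± 0.11, SE). On 203628_at they were 66.1 and 67.7 against 131.2 and 124.5, a ratio of 1.91 (log2 difference 0.80 ± 0.14, SE). All 3 passed in the fit over probe sets, 203628_at in none of the fits with an array left out, 225330_at only without control replicate 1 and 203627_at in all but that without control replicate 2. In the fit over genes, IGF1R passed in each of those 4 fits. The remaining pair, 208441_at and 243358_at, was dim, at 27.8 or below, with log2 differences of 0.40 ± 0.26 and 0.08 ± 0.25 (SE). The 3 brighter probe sets of IGF1R thus had one direction, and the dim pair did not pass.

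IGF2R, the clearing receptor, showed no difference that passed. Its brightest probe set, 201393_s_at, read 1044 and 831.8 in the control arrays and 786.2 and 804.5 in the COUP-TFII siRNA arrays (log2 difference -0.22 ± 0.10, SE). The COUP-TFII siRNA arrays were both below the lower control array, but by less than the control arrays differed from each other. The log2 difference was -0.06 without control replicate 1 and -0.39 without control replicate 2. On 201392_s_at the groups overlapped, at 500.0 and 448.4 against 388.5 and 453.0, and on the dim 1569052_at they overlapped as well.

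Among IGFBP2, IGFBP4 and IGFBP6, each read by 1 probe set, IGFBP6 passed by a small amount. IGFBP2, which is raised in many advanced prostate cancers, read 34.9 and 46.5 in the control arrays and 22.2 and 19.3 in the COUP-TFII siRNA arrays. Both COUP-TFII siRNA values lay below both controls, a ratio of means of 0.510, but the level was close to the array median and the log2 difference of -0.62 ± 0.21 (SE) did not pass. It was -0.93 with 1 added before the logarithm and -0.30 with 64 added. IGFBP4, an inhibitor of IGF action that is cut by the protease PAPPA, read 1736 and 1789 against 1951 and 1962, a ratio of 1.11 (log2 difference 0.15 ± 0.05, SE). It did not pass, but did in the fit with the replicate number as a block and in 3 of the other scalings. IGFBP6, which prefers IGF2 over IGF1, read 1000.4 and 938.7 against 1110 and 1160, a ratio of 1.17 (log2 difference 0.22 ± 0.06, SE). It passed in the fit over genes, not in that over probe sets and not with any 1 array left out.

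IGFBP1, a liver protein under insulin control, and IGFBP7 were dim on all of their probe sets. IGFBP1 lay between 8.63 and 15.2 on 205302_at and between 1.38 and 7.68 on 237989_at. On 205302_at the COUP-TFII siRNA arrays were above both controls, below the added constant of 16, and on 237989_at the groups overlapped. IGFBP7, a secreted protein of vessel walls and stroma, read 40.9 and 11.3 in the control arrays and 30.6 and 42.1 in the COUP-TFII siRNA arrays on 201162_at, its brightest. The spread between the control arrays was larger than the difference, and the log2 difference of 0.40 ± 0.33 (SE) became -0.13 without control replicate 2 and 0.93 without control replicate 1. Its other probe sets lay at 10.5 or below with overlapping groups. None of these levels can be called different at the precision of 2 arrays per group.

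The 3 probe sets that the platform table gives to both IGF2 and INS-IGF2 are not members, and their signal cannot be given to either gene. The brightest, 202409_at, read 334.7 and 302.8 in the control arrays and 824.2 and 796.8 in the COUP-TFII siRNA arrays, a ratio of 2.54 (log2 difference 1.31 ± 0.08, SE). Both COUP-TFII siRNA arrays were far above both controls. The dimmer 202410_x_at read 19.7 and 19.5 against 45.5 and 66.8, and 210881_s_at read 14.9 and 10.9 against 25.9 and 32.3. The first of these passed over all probe sets and the second did not (ratios of means 2.86 and 2.26).

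Across the family, 3 of the 9 measured genes passed as higher (IGFBP3, IGF1R and IGFBP6), 1 as lower (IGFBP5 by its brightest probe set) and 5 did not pass. In the same fit 12.8% of all 19775 genes passed as higher and 10.3% as lower, 23.1% in all. By probe set, 7 of 24 passed as higher and 1 as lower, beside 6.51% and 5.67% of the 54613 probe sets tested. Groups did not overlap for 8 of the 9 genes, beside 57.5% of all genes, and for 17 of the 24 probe sets, beside 50.4% of all. The median log2 difference was 0.22 over the 9 genes and 0.01 over all genes. The members were chosen on this comparison, so nothing is read from these counts. Centring the arrays on the median of 12 housekeeping genes raised every log2 difference by 0.29, whereas centring on the mean of the same 12 genes moved it by -0.01. The median log2 difference of those genes was -0.04. Of them 2 passed as higher (POLR2A at 1.04, SDHA at 0.20) and 2 as lower (HPRT1 at -0.77, PGK1 at -0.26). PPIA was dim, at 14.2 or below in all 4 arrays. The 12 genes were thus not all level. With the housekeeping median the split of all calls went from 55.3% to 88.7% higher, and IGF2R moved to 0.07, IGFBP2 to -0.33 and IGFBP5 to -0.51.

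**Figure D3:**
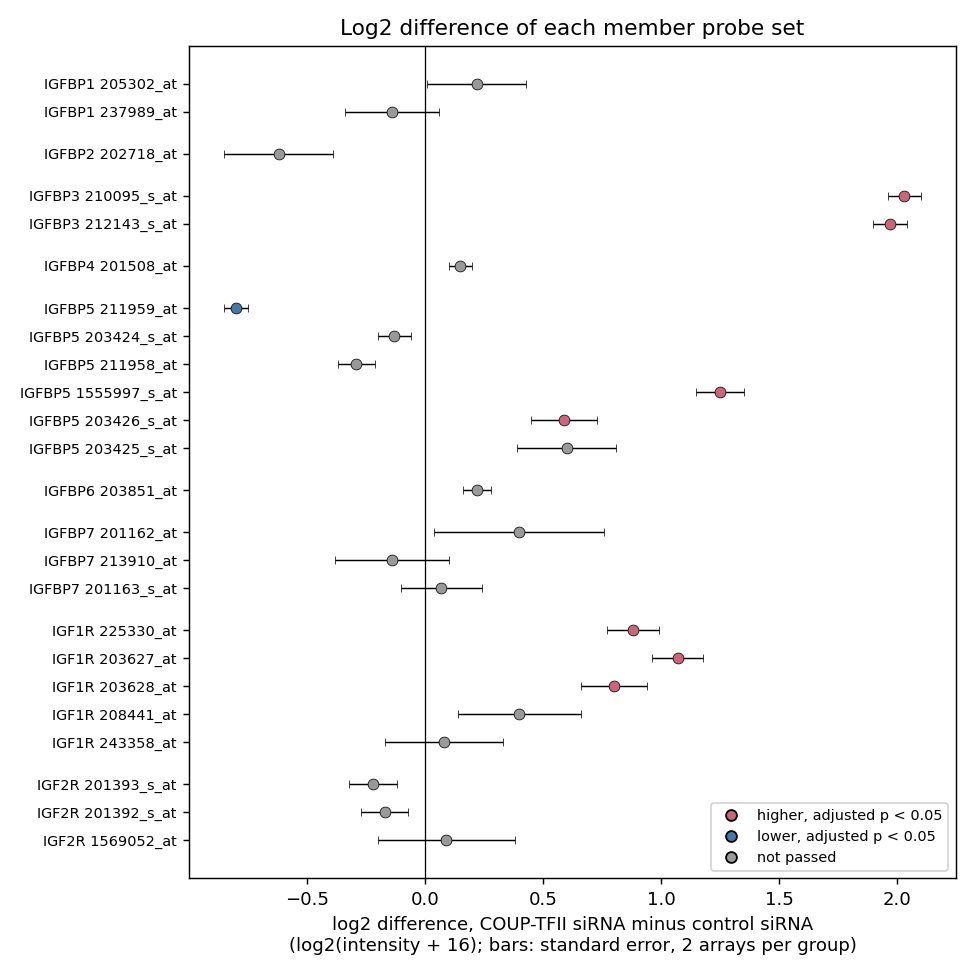
Log2 difference (COUP-TFII siRNA minus control siRNA, on log2(intensity + 16)) of each member probe set with its standard error, 2 arrays per group, coloured by the call of the fit over all probe sets. The 2 IGFBP3 probe sets are farthest to the right at 2.03 and 1.97, and IGFBP5 has probe sets at -0.80 and 1.25.

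IGFBP1 and IGFBP3 lie next to each other on chromosome 7, and IGFBP2 and IGFBP5 on chromosome 2, in the RefSeq order of measured genes. None of the genes next to these pairs passed. On the far side of IGFBP3, TNS3, an adhesion adaptor gene, had intensities of 3990 ± 242 and 4155 ± 85 (SD, n = 2), a log2 difference of 0.06 ± 0.05 (SE; limma adjusted p = 0.513). Beyond IGFBP1, the pseudogene SEPTIN7P2 was at 0.03 ± 0.16 (limma adjusted p = 0.946). The next gene, the adenylyl cyclase gene ADCY1, rose from 133.4 ± 14.2 to 296.7 ± 9.6 (SD, n = 2; log2 difference 1.07 ± 0.12, SE; limma adjusted p = 0.000231), or 0.33 when its probe sets were averaged, which did not pass. Around the pair on chromosome 2, the ribosomal protein gene RPL37A was at -0.03 ± 0.04 (limma adjusted p = 0.715) and the antisense gene IGFBP-AS1 was dim, at 14.4 ± 4.1 and 7.5 ± 2.2. Over all genes, 12.8% rose and 10.3% fell in the same fit. Within 2 places of all 9 measured members lay 28 other genes, of which 3 rose, 1 fell and 24 did not pass. Beside ADCY1 these were TOP2A next to IGFBP4, the topoisomerase gene of dividing cells, which fell by 1.31 ± 0.10 (SE; limma adjusted p = 3.08e-05; -0.82 with averaged probe sets), SPRYD3 next to IGFBP6 (0.57 ± 0.11, SE; limma adjusted p = 0.00546) and NOA1 near IGFBP7 (0.45 ± 0.08, SE; limma adjusted p = 0.00317). SPRYD3 passed with no array left out, and NOA1 did not pass without control replicate 2 or without COUP-TFII siRNA replicate 1.

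The 5 genes whose profile over the 4 arrays was nearest to that of IGFBP3, by Euclidean distance between log2 values centred on each gene's mean, were CLIC3, STK38L, LINC01607, EPPK1 and VGLL3. Genes known only by a LOC name were passed over in this choice. The distances ran from 0.0593 for CLIC3, a chloride channel family member, to 0.239 for VGLL3, a cofactor of TEAD transcription factors. CLIC3 read 45.3 and 47.3 in the control arrays and 246.3 and 220.8 in the COUP-TFII siRNA arrays. The kinase gene STK38L read 595.4 and 564.7 against 2421 and 2171. The other 3, the long non-coding RNA LINC01607, the epiplakin gene EPPK1 and VGLL3, had log2 differences of 2.05, 1.84 and 1.81. With averaged probe sets LINC01607 was at 1.15 and EPPK1 at 1.11, and with 64 added LINC01607 was at 1.32. The genes were picked for this likeness, which rests on 4 arrays and mostly on the difference between the groups.

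**Figure D4:**
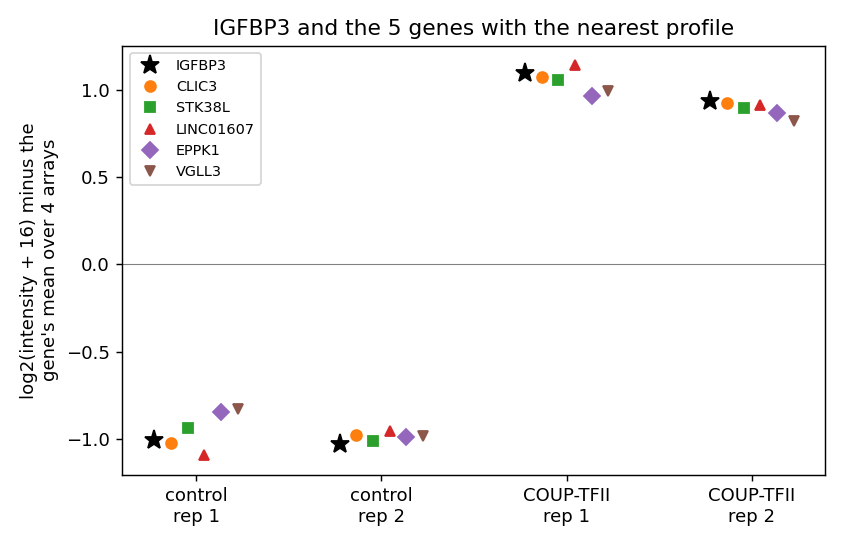
Log2(intensity + 16) minus each gene's mean over 4 arrays, for IGFBP3 (black star) and the 5 genes with the smallest Euclidean distance to it, LOC names passed over. Points are offset sideways for clarity, and all 6 genes sit near -1 in the control arrays and near 1 in the COUP-TFII siRNA arrays.

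The rest of the IGF pathway was read in 8 lists with 93 measured genes, drawn up with earlier results of these data known. Of these, 19 rose and 9 fell, while 65 did not pass, in a fit where 12.8% of all genes rose and 10.3% fell. The median log2 difference was 0.07, against 0.01 over all genes. Nothing is read from these counts as particular to the pathway. Among the other ligands, insulin receptors and the carrier subunit, 0 of 5 passed by limma, and 2 had an unadjusted p below 0.05. INSR, the insulin receptor and closest relative of IGF1R, read 236.1 and 221.6 in the control arrays and 194.2 and 178.1 in the COUP-TFII siRNA arrays. Its log2 difference was -0.28 ± 0.11 (SE; limma adjusted p = 0.114). It was 0.01 after centring on the housekeeping median and -0.28 after centring on the housekeeping mean. Whether INSR and IGF1R differ in response was not tested. IGF1 itself was dim, between 25.7 and 31.1 in all 4 arrays.

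Of 12 proteases that cut IGFBPs and their regulators, 2 rose, 2 fell and 8 did not pass (median -0.02). Beside this, 12.8% of all genes rose and 10.3% fell. ADAM12, a metalloprotease that cuts IGFBP3 and IGFBP5, fell from 164.5 ± 12.2 to 55.5 ± 10.6 (SD, n = 2), 2.96 times lower (log2 difference -1.34 ± 0.17, SE; limma adjusted p = 0.000444). It passed on 3 of its 5 probe sets. Averaging its probe sets gave -0.88. STC1, a stanniocalcin related to the PAPPA inhibitor STC2, fell from 109.4 ± 7.3 to 34.7 ± 0.8, 3.15 times lower (limma adjusted p = 0.000639), and its log2 difference of -1.31 was -0.81 with 64 added before the logarithm. STC2 was level, at 1765 and 1737 against 1751 and 1744. PAPPA, the protease that cuts IGFBP4, read 45.3 and 50.6 against 35.5 and 24.3, a log2 difference that did not pass (-0.49 ± 0.21, SE; limma adjusted p = 0.149). The lysosomal protease gene CTSD and the matrix metalloprotease gene MMP7 were the 2 that rose, CTSD by 0.37 ± 0.07 and MMP7, near the floor, by 0.94 ± 0.23 (SE). In the fit over probe sets CTSD passed and MMP7 did not. MMP7 passed with no array left out and was 0.50 with 64 added, and CTSD did not pass without either control array.

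Among 10 relatives with an IGFBP domain, 1 rose and 1 fell (median 0.08), where 12.8% of all genes rose and 10.3% fell. ESM1, a secreted proteoglycan of endothelium and some tumours, rose from 34.1 ± 7.6 to 127.7 ± 3.7 (SD, n = 2), 3.74 times higher (log2 difference 1.53 ± 0.18, SE; limma adjusted p = 0.000355), or 0.97 with 64 added. It is read by a single _x_at probe set, a kind open to cross-hybridisation. KAZALD1 fell from 74.2 ± 7.6 to 37.8 ± 13.8 (log2 difference -0.77 ± 0.22, SE; limma adjusted p = 0.0356), passed with no array left out, and was -0.29 when its probe sets were averaged, -0.45 with 64 added and -0.50 without COUP-TFII siRNA replicate 2. In the fit over probe sets, none of the 3 of KAZALD1 passed. The abundant matricellular genes CCN1 and CCN2, at 7224 and 7499 against 7145 and 7378 and at 2193 and 2249 against 2560 and 2357, did not pass.

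Of 4 genes that bind IGF2 mRNA or lie at its locus, 0 passed by limma, and 0 had an unadjusted p below 0.05. IGF2BP2, an mRNA-binding protein, was at 2064 ± 20 and 1944 ± 121 (SD, n = 2), a log2 difference of -0.09 ± 0.06 (SE; limma adjusted p = 0.362). It was 0.21 after centring on the housekeeping median. Of 10 genes of mannose 6-phosphate sorting, which IGF2R serves, 0 passed by limma in the fit over genes and 2 had an unadjusted p below 0.05. In the fit over probe sets, 1 of the 5 of GGA1 passed as higher and 1 of the 8 of GGA2 as lower. The retromer gene VPS26A was at 2942 ± 52 and 3124 ± 166 (log2 difference 0.09 ± 0.05, SE; limma adjusted p = 0.324). It was 0.38, which passed, after centring on the housekeeping median and 0.08, which did not, on the housekeeping mean. M6PR, the second mannose 6-phosphate receptor, read 344.7 and 397.6 against 333.9 and 327.0.

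Of 15 receptor adaptors, 6 rose and 2 fell (median 0.08), where 12.8% of all genes rose and 10.3% fell. SOS1, a RAS exchange factor, rose by 0.53 ± 0.10 (limma adjusted p = 0.00436), the IGF1R-binding adaptor GRB10 by 0.41 ± 0.06 (limma adjusted p = 0.00087) and the docking protein IRS2 by 0.37 ± 0.08 (SE; limma adjusted p = 0.00703). The others that rose, named after their values were seen, were SHC1, PTPN11 and GRB2, by 0.33, 0.24 and 0.17. PTPN1, a phosphatase that acts on the insulin receptor, fell by 0.41 ± 0.08 (SE; limma adjusted p = 0.00409) and, also named afterwards, IRS1 fell by 0.23. IRS1 was at 0.07 and PTPN1 at -0.12 after centring on the housekeeping median. Averaging probe sets gave -0.11 for PTPN1, 0.33 for SOS1 and 0.11 for GRB2. In the fit over probe sets, none of the 3 of IRS1 passed and none of the 3 of GRB2. Only SHC1 passed with each array left out in turn. GRB10 did not pass without control replicate 2, SOS1 passed only without control replicate 1, PTPN1 and PTPN11 only without COUP-TFII siRNA replicate 2, and IRS1, IRS2 and GRB2 in none of these fits.

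Of 24 genes of PI3K, AKT and FOXO, 6 rose and 1 fell (median 0.22), against 12.8% and 10.3% of all genes. FOXO1, a transcription factor that AKT keeps out of the nucleus, read 140.1 and 145.2 in the control arrays and 243.8 and 239.5 in the COUP-TFII siRNA arrays (log2 difference 0.70 ± 0.11, SE; limma adjusted p = 0.00184). FOXO3, its relative, read 991.3 and 869.8 against 1346 and 1318 (log2 difference 0.51 ± 0.07, SE; limma adjusted p = 0.000982). With 1 array left out FOXO1 ran from 0.68 to 0.72 and FOXO3 from 0.42 to 0.61. In the fit over probe sets FOXO1 passed on 2 of its 3 and FOXO3 on 2 of its 4. With averaged probe sets FOXO1 was at 0.59 and FOXO3 at 0.35. With 1 prior variance FOXO3 did not pass (limma adjusted p = 0.0686). The lipid kinase subunit PIK3CD rose by 0.66 ± 0.16 (SE; limma adjusted p = 0.0143), or 0.42 with averaged probe sets. The AKT phosphatase PHLPP2 fell by 0.40 ± 0.09 (SE; limma adjusted p = 0.013). Its log2 difference was -0.10 after centring on the housekeeping median and -0.40 after centring on the housekeeping mean. GSK3B, RICTOR and PHLPP1, named after their values were seen, rose by 0.39, 0.39 and 0.32, RICTOR by 0.21 without control replicate 2 and PHLPP1 by 0.17 with averaged probe sets. PIK3CD and PHLPP1 passed with no array left out, RICTOR only without control replicate 1 and PHLPP2 only without COUP-TFII siRNA replicate 2, and GSK3B did not pass without control replicate 2. AKT1 and AKT2, the kinases themselves, did not pass, at log2 differences of 0.12 ± 0.08 and 0.07 ± 0.08 (SE). In the fit over probe sets, 1 of the 7 of AKT2 passed as lower.

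Of 13 genes whose proteins bind IGFBP3 or act as its cell surface receptors, 4 rose and 3 fell (median 0.07), again against 12.8% and 10.3% of all genes. TMEM219, described as a death receptor for IGFBP3, rose from 553.7 ± 44.9 to 912.8 ± 30.7 (SD, n = 2) on its brighter probe set. The log2 difference was 0.71 ± 0.08 (SE; limma adjusted p = 0.000231). Averaging both probe sets gave 0.04, so the dimmer one went the other way, without passing in the fit over probe sets. TGFBR2, the TGF-beta receptor subunit through which IGFBP3 has been reported to signal, fell from 3163 ± 101 to 1552 ± 21 (log2 difference -1.02 ± 0.05, SE; limma adjusted p = 4.11e-06). It passed on 1 of its 2 probe sets. The retinoid X receptor RXRB, a nuclear partner of IGFBP3, rose by 0.41 ± 0.08 (SE; limma adjusted p = 0.00705), or 0.09 with averaged probe sets. The integrin subunit ITGA5 rose by 0.43 ± 0.13 (SE; limma adjusted p = 0.0469) but did not pass in the fit over probe sets. RXRA (0.37), CAV1 (-0.34) and HSPA5 (-0.29), which also passed, were named after their values were seen. After centring on the housekeeping median CAV1 was at -0.05 and HSPA5 at 0.00. With the housekeeping mean they were at -0.35 and -0.29. RXRA was 0.23 with averaged probe sets. TMEM219, TGFBR2 and CAV1 passed with each array left out in turn, HSPA5 not without either control array, RXRB only without COUP-TFII siRNA replicate 2, and ITGA5 and RXRA in none of these fits.

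**Figure D5:**
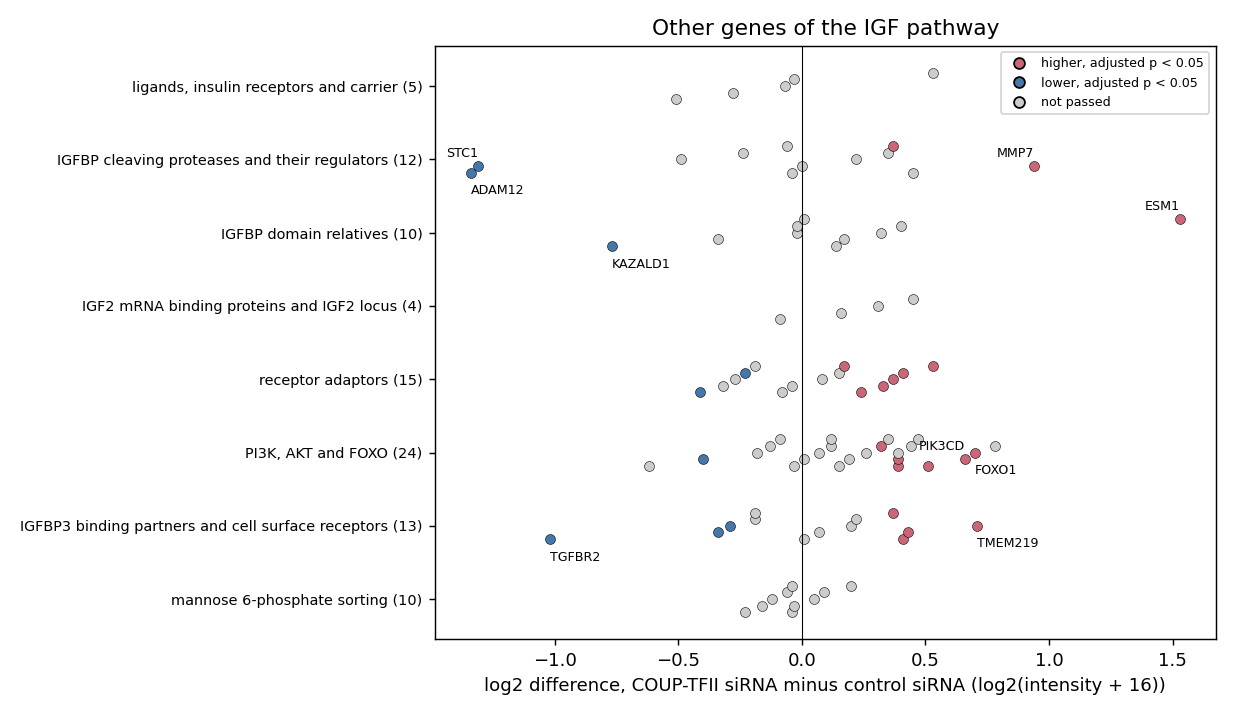
Log2 difference (COUP-TFII siRNA minus control siRNA) of the 93 measured genes of 8 IGF pathway lists, 1 point per gene, with list sizes in parentheses. Red genes passed as higher (19) and blue as lower (9), and the points of mannose 6-phosphate sorting and of the ligands hold none that passed.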

How the data were processed

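Per the labels' protocols, biotin-labelled RNA from a 3′ IVT kit was read on 1-colour Affymetrix arrays. The authors deposited 1 linear intensity per probe set and array, from 0.61 to 15890. How probes were summarised, background-corrected and normalized is not given in the sources used here. On each array, between 31.4% and 33.0% of the values of an array lay below 16, and no detection calls were used.

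The platform table named 1 gene for 41091 probe sets, several for 1801 and none for 11721, beside 62 control probe sets, which entered no test. Gene symbols follow RefSeq, GRCh38.p14, by Entrez identifier (41037 matched). A gene was represented by its brightest single-gene probe set, passing over _x_at probe sets where it had another.

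Values of log2(intensity + 16) were fitted with limma 3.58.1 (R 4.3.3) by lmFit, then eBayes with trend = TRUE, without a replicate block, over 19775 genes and, separately, over 54613 probe sets. P-values were adjusted by Benjamini-Hochberg at 0.05. A gene "passed", "rose" or "fell" only by this test. The script was tested on simulated data. The number of arrays limits the precision, and an exact permutation test of 2 arrays against 2 cannot give a two-sided p below 0.333. Same-numbered arrays did not deviate together (correlation 0.01 over probe sets).

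The members and lists were chosen with earlier results of these data known. The rule for named genes took all members, up to 4 genes with the largest change among those that passed in each list, or the brightest where none did, and the 5 genes nearest in profile to IGFBP3. For these 5, genes known only by a LOC name were passed over. Chromosome neighbours, IGF1, PAPPA, STC2, CCN1, CCN2, M6PR, AKT1 and AKT2 were chosen after their values were seen. Of 100 listed pathway genes, 93 were measured by single-gene probe sets. The level of the targeted transcript is not reported here. Alternatives covered the replicate block, scaling, the added constant, dim values, the prior variance, the probe set per gene, the threshold and each array left out. Figures were drawn with matplotlib 3.10.9.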

Additional observations from a re-analysis of the deposited data

How the results depend on the processing

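The log2 difference of IGFBP3, for which the genes were chosen, ran from 1.94 to 2.32 over 15 alternatives (1.95 to 2.11 with 1 array left out), and that of IGF1R from 0.64 to 1.17. Members were chosen on these arrays, so their ranges describe the settings and support nothing. IGFBP5 was lower in 14 and at 0.20, not passing, when its 6 probe sets were averaged, which leaves 0 member genes passing as lower. With dim values left out 2 passed as lower, IGF2R being the second, over fewer genes tested. The limma adjusted p of STK38L was 1.83e-130 in that fit and 9.82e-07 in the main one. What part the prior variance had in the calls of that fit was not tested. Member genes passing as higher numbered 2 to 4 in all alternatives (2 with any array left out). Centring on the housekeeping median gave 7453 genes higher and 945 lower, 14239 probe sets higher and 1643 lower, and 52 pathway genes higher and 3 lower, with IGF2BP2 at 0.21 and IRS1 at 0.07. With 1 prior variance the counts were 767 and 822 genes, 172 and 355 probe sets, and 3 and 3 pathway genes. Averaged probe sets gave 1631 genes higher, and 11 pathway genes higher and 5 lower. Leaving out dim values gave 5493 probe sets higher. At a threshold of 0.01 there were 1457 genes higher and 1324 lower, 1638 and 1762 probe sets, and 12 pathway genes higher. With 1 array left out, genes higher ranged from 865 to 1231 and lower from 875 to 1373, probe sets higher from 314 to 1017 and lower from 403 to 1522, and pathway genes higher from 5 to 11 and lower from 4 to 7. Where no value shows it, the cause was not tested. Of the 28 pathway genes that passed, 9 passed with every array left out in turn, 9 with none and 10 with some; 22 did not pass with 1 prior variance and 12 did not with averaged probe sets. With the replicate block, whose numbers the labels do not say pair the arrays, 2858 genes passed as higher and 2274 as lower, and IGFBP4 passed at 0.15; it ended the call of 0 of the 28 pathway genes.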
